A study of Mus musculus with 8 samples.

Results

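The 9 genes described here encode transcription regulators of the macrophage programme: Spi1 (the gene of PU.1), Runx1, Zeb2, Maf, Bhlhe40, Bhlhe41, Id1, Id2 and Id3. They were chosen by name, as the genes of the deposited table that carry these symbols, and each of the 9 was found among the table's 34432 genes. Mouse bone marrow-derived macrophages, grown in culture from marrow precursors and left untreated, gave polyadenylated RNA for sequencing on day 7 of differentiation. The double knockout (DKO, 4 libraries) carried floxed Cdk8 alleles with a Vav-iCre recombinase and was Cdk19 null, and the VAV-cre control (4 libraries) carried the recombinase alone. Vav drives expression in blood-forming cells. Mediator, the complex that links transcription factors to the polymerase, carries either Cdk8 or its paralog Cdk19 as a kinase. The comparison addressed here is the level of each regulator in DKO against VAV-cre macrophages. The sources used here do not give the age or strain of the animals, or say whether each library had its own animal or culture. The p-values therefore measure only the spread between these libraries, which may be technical.

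PU.1 is the ETS-family factor that macrophages depend on, and it binds enhancers together with partners such as Runx1. Maf is a bZIP factor linked to the resident, non-dividing macrophage state, and Zeb2 is a zinc-finger repressor known for keeping tissue macrophage identity. Bhlhe40 and Bhlhe41 are basic helix-loop-helix repressors that bind E-boxes, and both belong to the circadian clock's feedback loop. Id1, Id2 and Id3 lack a DNA-binding region and hold the E proteins Tcf3, Tcf4 and Tcf12 off DNA, and Id1 to Id3 are known targets of BMP signalling through SMAD factors.

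E-boxes are the sites through which Bhlhe proteins act and which E proteins bind, so stretches of the promoter windows of the regulators that hold one are shown first. RefSeq promoter windows (GRCm38.p6, 250 bases before to 50 after the start) were found for 5 of the 9 genes, namely Bhlhe41, Id2, Id3, Runx1 and Zeb2, with 9 windows in all. The stretches below are the parts of the windows that precede the first annotated exon base inside the window, written 5′ to 3′ along the minus strand, on which all 3 genes lie, with every CANNTG in capitals. They lie at chr6:145865559-145865670 (Bhlhe41), chr12:25096254-25096342 (Id2) and chr16:92826150-92826324 (Runx1). Those of Bhlhe41 and Runx1 lie before the annotated 5′ end of the gene, whereas that of Id2 lies inside it, in an intron of a longer annotated transcript and before the start that RefSeq gives.
Bhlhe41: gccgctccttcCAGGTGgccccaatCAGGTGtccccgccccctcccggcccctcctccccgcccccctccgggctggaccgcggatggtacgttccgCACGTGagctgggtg
Id2: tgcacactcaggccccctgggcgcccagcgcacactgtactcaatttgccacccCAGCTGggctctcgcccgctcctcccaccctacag
Runx1: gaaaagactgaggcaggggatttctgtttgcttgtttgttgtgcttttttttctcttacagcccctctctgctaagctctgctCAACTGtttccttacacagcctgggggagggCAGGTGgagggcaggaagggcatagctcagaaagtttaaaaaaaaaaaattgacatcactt
Bhlhe41 held 2 CAGGTG and 1 CACGTG in this stretch, CACGTG being the E-box that the Bhlhe proteins themselves bind. Both words are also cases of CANNTG, of which the 300-base window of Bhlhe41 held 4. The first of the 2 Runx1 windows held 3 CANNTG, among them 1 CACGTG that lies outside the printed stretch, and 2 TGTGGT, the RUNX word. Id2 held 1 CANNTG, and none of the words searched stood in the windows of Id3 or Zeb2. Over all 32851 promoter windows and both strands, CANNTG stood in 72.3%, CACGTG in 7.15%, CAGGTG in 20.2%, TGTGGT in 16.8%, the PU.1 word GAGGAAGT in 3.20% and the Maf word TGCTGA in 19.5%. These are matches of letters, with no binding measured here.

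Libraries were of similar depth, with 17856715 to 21353207 reads recovered from 6 of them. Cdk19, the gene made null, held 396, 392, 361 and 342 normalized counts in the DKO libraries, against 1299, 1295, 1530.3 and 1682 in the VAV-cre libraries. Cdk8 held 429, 309, 357 and 294 in DKO, against 466, 449, 408 and 432 in VAV-cre. The table holds 1 value per gene, so the loss of the floxed part of Cdk8 was not tested. Of 15 macrophage markers tested, 7 rose and 6 fell (3 with DKO replicates 1 and 2 only), and they summed to 268527 to 289606 in DKO and 335737 to 352419 in VAV-cre. Other markers moved with genotype: of 13 monocyte markers, 12 were tested, of which 7 fell and 1 rose (Nr4a1), with sums of 1069.9 to 1262 in DKO and 3433 to 4053 in VAV-cre. Of 14 neutrophil markers tested, 10 fell and none rose, with sums of 1350.4 to 1669 in DKO and 2744 to 4553 in VAV-cre. With 1 library left out, 7 to 10 of these neutrophil markers fell, and 1 rose without VAV-cre replicate 1. All 20 proliferation genes fell, with sums of 17873 to 18298 in DKO and 60868 to 65532 in VAV-cre. Of 16 lymphocyte markers, 7 were at 0 in every library, among them Cd3e and Cd3d, and of the 4 tested 1 rose and 2 fell (1 without DKO replicate 1, 2 or 4 or VAV-cre replicate 2 or 3). Progenitor markers (4 tested) gave 1 rise and 1 fall, and osteoclast markers (7 tested) 2 rises and 3 falls. Of 12 dendritic cell markers, 3 were tested, of which 2 rose, among them the E protein gene Tcf4. Pf4 was the only erythroid and megakaryocyte marker tested and rose, and no mast cell or basophil marker was high enough to test. Within DKO, libraries 1 and 2 and libraries 3 and 4 were closer to each other (root-mean-square log2 difference 0.132 and 0.140 over 3996 genes with a mean of at least 1000) than across (0.184 to 0.194), and VAV-cre libraries differed by 0.181 to 0.366. The part of these differences in the results below was not tested. In such bulk RNA, fewer cells of a type and less RNA per cell cannot be told apart.

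Of the 9 regulators, 3 rose in DKO macrophages (Bhlhe40, Bhlhe41 and Id2), 3 fell (Spi1, Maf and Id1) and 3 did not pass the test (Runx1, Zeb2 and Id3). The threshold was an adjusted p of 0.05 (Benjamini-Hochberg over 11675 genes, limma on log2(value + 1)). Of all genes tested, 46.6% were called, 22.9% higher and 23.8% lower, and 66.7% of the regulators were called, against that background. The counts of the gene lists, above and below, have the same background. The DKO and VAV-cre libraries did not overlap for the 6 called regulators, nor for 42.9% of all genes tested (21.2% higher and 21.7% lower in DKO). Each of the 6 had an exact permutation p of 0.0286, against 0.486 for Runx1, 0.343 for Zeb2 and 0.400 for Id3. The median log2 fold change of the 9 genes was -0.12, against 0.01 over all genes tested. A larger change than that of Bhlhe40 was seen in 7.89% of tested genes, than that of Id1 in 15.9%, and than that of Maf and Spi1 in 41.1% and 46.6%.

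**Figure D1:**
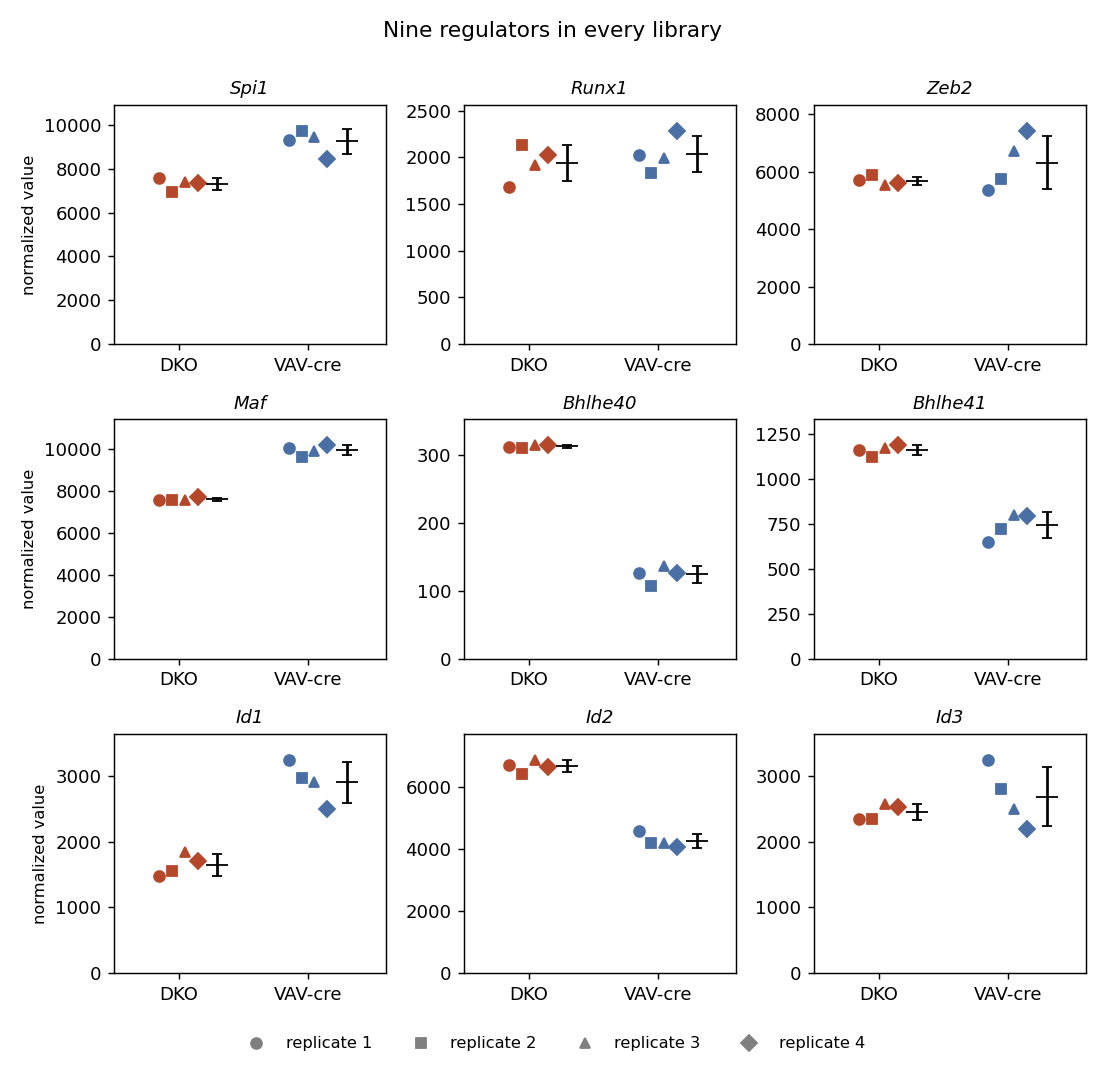
Normalized counts of each regulator by library, DKO left of VAV-cre, with points for single libraries and the mean and SD of each group (n = 4). The groups do not overlap for Spi1, Maf, Bhlhe40, Bhlhe41, Id1 and Id2, and they overlap for Runx1, Zeb2 and Id3.

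**Figure D2:**
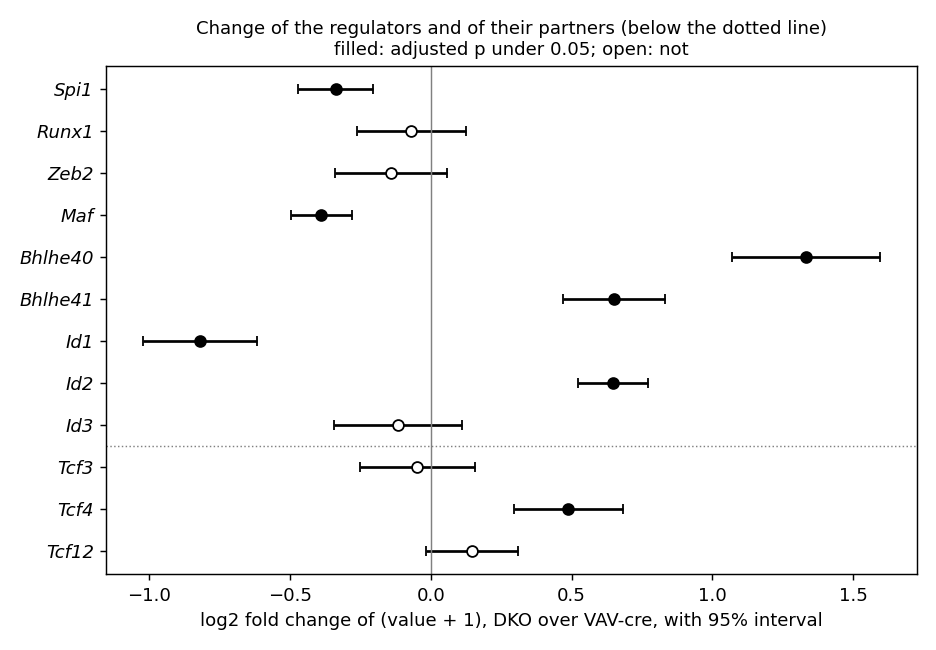
Log2 fold change (DKO over VAV-cre) with its 95% interval from limma for the 9 regulators and, below the dotted line, the E proteins. Filled points passed the test and open points did not. Bhlhe40 lies highest at 1.33 and Id1 lowest at -0.82, and the intervals of Runx1, Zeb2 and Id3 hold 0.

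Spi1, PU.1 itself, was lower in DKO macrophages. Spi1 (ENSMUSG00000002111, chromosome 2, 91082390 to 91115756, plus strand, mm10) held 7579, 6921, 7381 and 7367 normalized counts in DKO libraries, against 9332, 9743, 9458 and 8460.1 in VAV-cre libraries. Every DKO library lay below every VAV-cre library. The means were 7312 ± 278 in DKO and 9248 ± 553 in VAV-cre (SD, n = 4 each), so DKO held 79.1% of the control level. The log2 fold change was -0.34 (SE 0.06, 95% interval -0.47 to -0.20, limma adjusted p = 0.000786). The exact permutation p of 0.0286, two-sided, is the smallest that 4 against 4 allows.

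Among 16 ETS relatives, 14 were tested, of which 3 rose and 5 fell (median log2 0.01). With the DKO pairs averaged, or with DKO replicates 1 and 2 only, 2 fell. Spic, the close relative of PU.1 that marks iron-handling macrophages, rose 7.08-fold, to 294 ± 47.4 in DKO against 41.5 ± 3.35 in VAV-cre (adjusted p = 8.22e-08). Ets2 (log2 -0.39, adjusted p = 0.000146) and Etv3 (log2 -0.27, adjusted p = 0.00369) fell, and Elk3 rose (log2 0.28, adjusted p = 0.0016). Of 30 genes known to depend on PU.1, all tested, 13 fell and 4 rose, with a median of -0.13. Itgb2, the beta chain of the leukocyte integrins, fell to 8979 ± 724 in DKO against 15879.6 ± 928 in VAV-cre. Lyz2, which encodes lysozyme, and Csf1r, the receptor of the growth factor macrophages live on, fell too (log2 -0.73 and -0.80, adjusted p = 9.01e-07 and 2.39e-06). Cd68, a lysosomal protein of macrophages, went the other way, with log2 0.57 (adjusted p = 8.9e-06). With DKO libraries 1 and 2 alone, 7 of the 30 fell and 2 rose.

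Runx1, the partner of PU.1 at myeloid enhancers, did not pass the test. Runx1 (ENSMUSG00000022952, chromosome 16, 92601466 to 92826149, minus strand) held 1685, 2132, 1922 and 2022 in DKO libraries, against 2027, 1831, 1995 and 2286 in VAV-cre libraries. The groups overlapped. The log2 fold change was -0.07 (SE 0.09, 95% interval -0.26 to 0.12, adjusted p = 0.549). With 1 library left out it ran from -0.12 (without VAV-cre replicate 2, and without DKO replicate 2) to -0.0038 (without DKO replicate 1), and it was -0.012 without VAV-cre replicate 4. Of 10 RUNX partners and relatives tested, 4 fell and 1 rose (2 rose without DKO replicate 1 or VAV-cre replicate 4). Cbfb, the subunit that RUNX proteins bind DNA with, fell to 3879 ± 206 in DKO against 5709 ± 281 in VAV-cre (adjusted p = 1.7e-05). Of the Groucho-type corepressors, Tle1 fell to 510.0 ± 18.0 in DKO against 964 ± 39.9 in VAV-cre (adjusted p = 1.38e-06), whereas Tle3 rose to 1111 ± 80.9 in DKO against 669.9 ± 47.0 in VAV-cre (adjusted p = 2.32e-05).

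Zeb2 was not called either. Zeb2 (ENSMUSG00000026872, chromosome 2, 44983632 to 45117395, minus strand) held 5714, 5878, 5551 and 5598 in DKO libraries, against 5366, 5765, 6719 and 7436 in VAV-cre libraries. The VAV-cre libraries spread on both sides of the DKO libraries, with SDs of 146 in DKO and 935 in VAV-cre. Its log2 fold change was -0.14 (SE 0.09, 95% interval -0.34 to 0.06, adjusted p = 0.227), and without VAV-cre replicate 1 it was -0.22 (adjusted p = 0.0496). Without VAV-cre replicate 4 it was -0.06 (adjusted p = 0.544). Of 9 ZEB relatives and corepressors tested, 3 fell and none rose. Without VAV-cre replicate 1, 5 fell, and without DKO replicate 3 or 4 or VAV-cre replicate 2 or 3, 2 fell. Zeb1, the paralog, fell to 99.7 ± 15.3 in DKO against 169.96 ± 24.8 in VAV-cre (adjusted p = 0.00307). Hdac1, a histone deacetylase of ZEB corepressor complexes, fell as well (log2 -0.43, adjusted p = 0.000165). Ctbp2 was called at an adjusted p of 0.0281 and not without DKO replicate 3 or 4, or VAV-cre replicate 2, 3 or 4 (0.0827, 0.0568, 0.0540, 0.0501 and 0.0677).

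Maf was lower in DKO macrophages. Maf (ENSMUSG00000055435, chromosome 8, 115682942 to 115707794, minus strand) held 7563, 7531, 7536 and 7686 in DKO libraries, against 10016, 9602, 9898 and 10163 in VAV-cre libraries. DKO libraries lay close together and all under the VAV-cre libraries. The level was 76.4% of VAV-cre, with a log2 fold change of -0.39 (SE 0.05, 95% interval -0.50 to -0.28, adjusted p = 6.03e-05).

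Of 18 genes typical of resident macrophages, 16 were tested, of which 9 rose and 1 fell (median log2 0.50). Lyve1 and Timd4 were too low to test, and with no filter on low values the median was 0.39. Gas6, a bridge between dying cells and phagocyte receptors, rose 4.39-fold, to 26323 ± 1301 in DKO against 5994 ± 375 in VAV-cre (adjusted p = 4.65e-10). Ccl8, a chemokine, rose to 898 ± 21.4 in DKO against 111 ± 19.0 in VAV-cre (adjusted p = 4.08e-09). F13a1, a coagulation factor also counted among the monocyte markers, fell to 23.9 ± 7.37 in DKO against 327 ± 73.8 in VAV-cre (adjusted p = 1.68e-07). Of the small Maf proteins, which lack an activation domain, Mafg rose (log2 0.48, adjusted p = 4.14e-05), and Maff and Mafk did not pass the test.

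Bhlhe40 rose most of the 9 regulators. Bhlhe40 (ENSMUSG00000030103, chromosome 6, 108660629 to 108666925, plus strand) held 312, 311, 315 and 315 in DKO libraries, against 127, 107, 136 and 126 in VAV-cre libraries. All DKO libraries lay above all VAV-cre libraries, 2.52-fold on average, at 313 ± 2.25 in DKO and 124 ± 12.2 in VAV-cre (SD, n = 4 each). The log2 fold change was 1.33 (SE 0.12, 95% interval 1.07 to 1.59, adjusted p = 3.17e-06). Bhlhe41 (ENSMUSG00000030256, chromosome 6, 145858243 to 145865558, minus strand) held 1160.2, 1125, 1175 and 1189.9 in DKO libraries, against 648, 724, 801 and 796 in VAV-cre libraries. It too was without overlap, at 1.57-fold the control level (log2 0.65, SE 0.08, 95% interval 0.47 to 0.83, adjusted p = 5.69e-05). Bhlhe40 rose by more than Bhlhe41. Their ratio was 0.269, 0.277, 0.269 and 0.265 in DKO libraries, against 0.197, 0.149, 0.171 and 0.160 in VAV-cre libraries (exact permutation p = 0.0286, and 0.0357 adjusted over the 5 ratios computed). Per kilobase of exon, Bhlhe40 made up 27.8% ± 0.362 of the sum of both genes in DKO and 19.3% ± 1.88 in VAV-cre. Of 13 clock genes tested, 4 rose, 1 fell and 8 were not called (median log2 0.22). Without DKO replicate 2 or 4 or VAV-cre replicate 1 or 2, 3 rose, and without VAV-cre replicate 4, 6 rose. Of all genes tested, 22.9% rose and 23.8% fell. Nr1d2, a nuclear receptor that represses clock genes, rose 1.59-fold (adjusted p = 0.000622), and Dbp, a clock output factor, rose 1.75-fold (adjusted p = 0.00219). Per3 rose to 80.2 ± 11.5 in DKO against 43.4 ± 9.43 in VAV-cre (adjusted p = 0.00611). Arntl, the activator of the loop, fell to 137 ± 27.1 in DKO against 216 ± 19.1 in VAV-cre (adjusted p = 0.00474, and 0.0559 with DKO libraries 1 and 2 alone). The sources used here do not give the time of day at collection.

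The Id genes moved in different directions. Id1 (ENSMUSG00000042745, chromosome 2, 152736251 to 152737410, plus strand) held 1476, 1558, 1839.6 and 1705 in DKO libraries, against 3250.1, 2968, 2906 and 2498 in VAV-cre libraries. No DKO library reached any VAV-cre library, and the mean was 56.6% of the control (log2 -0.82, SE 0.09, 95% interval -1.02 to -0.62, adjusted p = 2.07e-05). Id2 (ENSMUSG00000020644, chromosome 12, 25093799 to 25097140, minus strand) held 6729, 6438, 6897 and 6661 in DKO libraries, against 4587, 4209, 4205 and 4073 in VAV-cre libraries. It was higher in every DKO library, 1.57-fold on average (log2 0.65, SE 0.06, 95% interval 0.52 to 0.77, adjusted p = 2.61e-06). Id3 (ENSMUSG00000007872, chromosome 4, 136143497 to 136145755, plus strand) held 2351, 2344, 2575 and 2531 in DKO libraries, against 3248, 2799.7, 2504 and 2188 in VAV-cre libraries. The groups overlapped, and the log2 fold change was -0.12 (SE 0.10, 95% interval -0.35 to 0.11, adjusted p = 0.379). It was -0.02 without VAV-cre replicate 1 (adjusted p = 0.861) and -0.21 without VAV-cre replicate 4 (adjusted p = 0.0636). The ratio of Id1 to Id2 was 0.219, 0.242, 0.267 and 0.256 in DKO libraries, against 0.709, 0.705, 0.691 and 0.613 in VAV-cre libraries. Ratios of Id1 to Id3 and of Id2 to Id3 also separated the groups (exact permutation p = 0.0286 for all 3, adjusted 0.0357). Id2 held 49.6% ± 1.496 of the summed Id level per kilobase in DKO and 30.6% ± 1.84 in VAV-cre. Id1 held 25.6% ± 1.398 in DKO and 43.5% ± 0.800 in VAV-cre, and Id3 held 24.8% ± 0.284 in DKO and 25.9% ± 1.71 in VAV-cre. The sum itself, per kilobase, was 5526 ± 259 in DKO and 5755 ± 599 in VAV-cre. The ratio of summed Id values to summed E proteins, like the other ratios, used normalized counts not divided by length, unlike that sum. It was 1.68, 1.81, 1.89 and 1.74 in DKO libraries, against 2.43, 2.12, 1.91 and 1.63 in VAV-cre libraries. The groups overlapped (log2 difference -0.17, exact permutation p = 0.257). The difference was -0.08 without VAV-cre replicate 1 (exact permutation p = 0.514) and -0.27 without VAV-cre replicate 4. In the last case the groups did not overlap, and the exact permutation p of 0.0571 is the smallest that 3 against 4 allows.

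**Figure D3:**
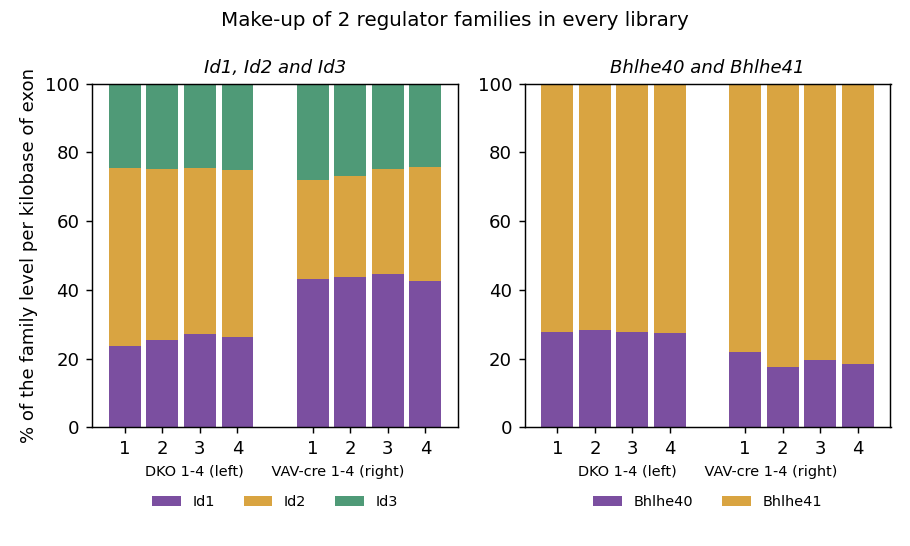
Stacked bars give each gene's percent of its family's summed level per kilobase of exon in every library, DKO libraries left of VAV-cre libraries. Id2 holds 49.6% of the Id sum in DKO against 30.6% in VAV-cre, and Bhlhe40 holds 27.8% of the Bhlhe sum in DKO against 19.3% in VAV-cre.

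Of the E proteins that Id proteins bind, Tcf4 rose to 3601 ± 201 in DKO against 2580.4 ± 334 in VAV-cre (log2 0.49, SE 0.09, adjusted p = 0.000814). Tcf3 (log2 -0.05, adjusted p = 0.707) and Tcf12 (log2 0.15, adjusted p = 0.132) did not pass the test. Of 12 E proteins and other helix-loop-helix factors, 7 were tested, of which 3 rose and 2 fell. Without DKO replicate 1 or 4 or VAV-cre replicate 2 or 3, 2 rose. Hey1, a Notch target repressor, stood at 87.4, 80.4, 73.0 and 85.8 in DKO libraries, against 3.93, 3.87, 4.44 and 0 in VAV-cre libraries (adjusted p = 2.6e-05). Every VAV-cre value of Hey1 lay under the filter's value of 10, so Hey1 entered the test only through its DKO libraries. Tal1, a blood stem cell factor that pairs with E proteins, fell to 374 ± 34.3 in DKO against 620.3 ± 41.0 in VAV-cre (adjusted p = 8.84e-05). Of 13 BMP-SMAD genes tested, 2 rose and 3 fell, and the count of rises was 0 without DKO replicate 1 and 1 without DKO replicate 2, 3 or 4 or VAV-cre replicate 3 or 4. The receptor gene Acvr1 fell to 452 ± 33.0 in DKO against 725 ± 50.6 in VAV-cre (adjusted p = 8.28e-05).

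**Figure D4:**
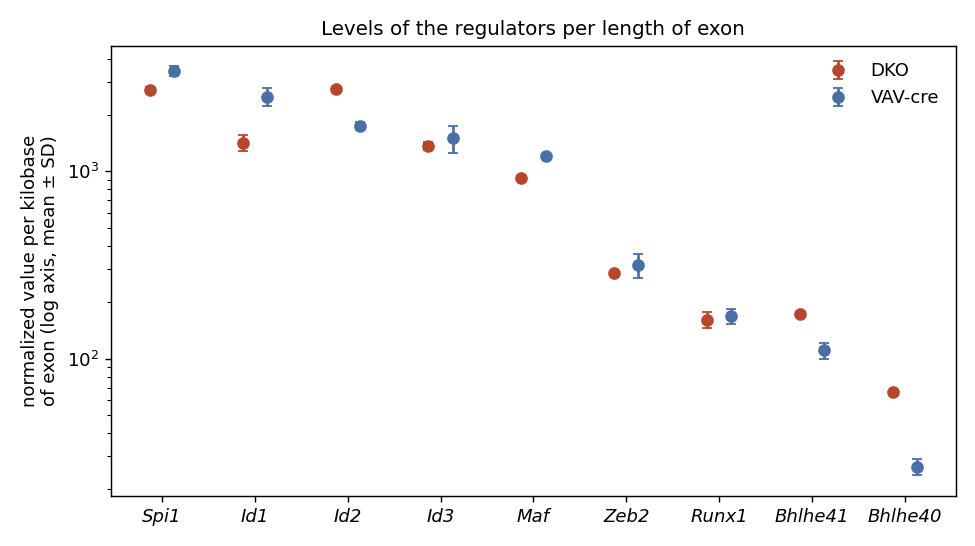
Level of each regulator per kilobase of exon on a log axis, mean and SD over 4 libraries, DKO left of VAV-cre. Spi1 and Id2 stand highest in DKO, at 2713 and 2740.4, and Bhlhe40 lowest in both groups, at 66.5 in DKO and 26.4 in VAV-cre.

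Per kilobase of exon, Id2 (2740.4 ± 78.0) and Spi1 (2713 ± 103) stood highest in DKO and did not differ beyond their spread, whereas Spi1 (3432 ± 205) led Id1 (2505 ± 268) and Id2 (1751 ± 90.8) in VAV-cre. Id1 (1418 ± 139) and Id3 (1368 ± 66.9) were also level in DKO. Maf followed, at 919.7 ± 8.80 in DKO and 1204 ± 28.9 in VAV-cre, then Zeb2, at 285 ± 7.31 in DKO and 317 ± 46.9 in VAV-cre. Bhlhe41 (173 ± 4.16) and Runx1 (161 ± 15.8) were within their spread in DKO, and Bhlhe40 was last. Among 21768 protein-coding genes, Spi1 ranked 377 in DKO and 288 in VAV-cre, and Id1 ranked 721 in DKO and 396 in VAV-cre. Which genes stood level depended on the length used. With the longest coding transcript in place of the union of exons, 3 orders turned round in DKO: Spi1 and Id2, Id1 and Id3, and Runx1 and Bhlhe41. Runx1 then stood at 331 and Bhlhe41 at 190, and Id3 at 1917 and Id1 at 1418. The family shares used the union of exons, so they depend on that choice too.

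**Figure D5:**
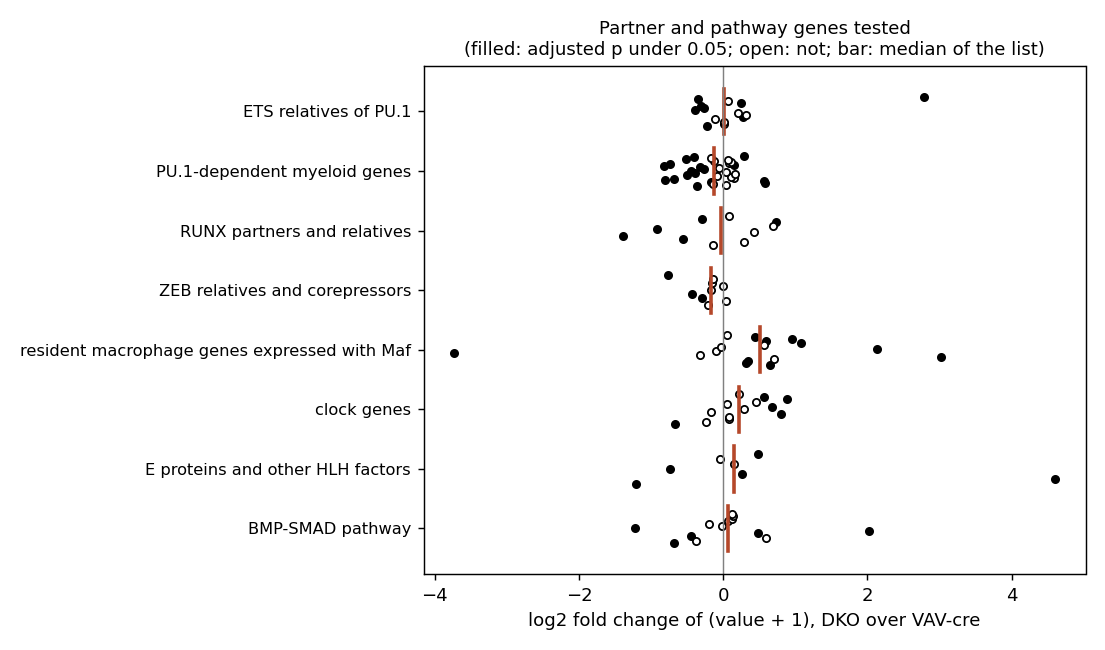
Log2 fold change (DKO over VAV-cre) of every tested gene in the lists around the regulators, filled where it passed the test, with a bar at each list's median. The resident macrophage list has its median at 0.50 and the PU.1-dependent list at -0.13.

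Across the 8 libraries, the profiles closest to those of the regulators were Drg2 and Clic1 for Spi1, Hnrnpdl and Elovl5 for Maf, Adipor1 and Zfp992 for Id2, and H2az1 and Lrrc75a for Id1. Bhlhe41 was closest to Gnpda1 and Rcbtb2, Bhlhe40 to Gpr65 and Aoah, Zeb2 to Aff1 and Hipk3, Runx1 to Rab14 and Fam117b, and Id3 to Dpysl2 and Ndufb2. Likeness was the root-mean-square difference of centred log2(value + 1), over 10048 genes. It was 0.0303 for Spi1 and Drg2 and 0.0920 for Bhlhe40 and Gpr65. Id1, Id2 and Id3 shared no stretch of 31 bases with each other on annotated transcripts, nor did Bhlhe40 and Bhlhe41. The E proteins used in a ratio were not checked. Antisense or overlapping genes share exon bases with Maf (440), Runx1 (106), Zeb2 (653), Bhlhe40 (118) and Bhlhe41 (1280), and the sources used here do not say whether counting used strand.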

How the data were processed

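RNA of 8 bone marrow-derived macrophage libraries was sequenced as polyadenylated RNA. Per the submitters' processing notes, Salmon 1.4.0 and DESeq2 were used with mouse build mm10. Sources used here do not give the annotation, filters or strand use. The deposited values are a signal: the authors' normalized counts, 1 per gene and library, with no raw counts. In 6 libraries 100% of values came out as whole reads after undoing a size factor (tolerance 0.01), and for DKO replicates 2 and 3 the check of this did not pass, so count models used the 6 libraries only.

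The test was limma 3.58.1 (R 4.3.3, trend and robust, two-sided, genotype as the sole term) on log2(value + 1), a scale that understates low genes' changes. It covered the 11675 genes that reached a value of 10 in 4 or more libraries. Benjamini-Hochberg adjustment ran over all of these, with a threshold of 0.05. Ratios and single genes were compared by exact permutation over the libraries. Coordinates and exon lengths are from GENCODE vM21 (mm10), and promoters from RefSeq GRCm38.p6. As alternatives, edgeR 4.0.16 and DESeq2 1.42.0 were run on the 6 libraries (2 DKO, 4 VAV-cre); TMM scaling was applied to the deposited values, not to recovered reads. The 9 genes, the 19 lists and the tests were chosen with earlier results of these data known, so the counts are descriptions. Named genes are the 9 members, Cdk8, Cdk19, the E proteins used in ratios, up to 4 genes of a described list with the smallest adjusted p, and the 2 closest profiles per member. A planned ratio and some genes are not reported here. The pipeline was tested on simulated data.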

Additional observations from a re-analysis of the deposited data

How the results depend on the processing

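Across 22 alternatives, all 6 calls kept their direction and their side of the threshold, with log2 fold changes of -0.38 to -0.31 for Spi1, -0.43 to -0.38 for Maf, 1.26 to 1.46 for Bhlhe40, 0.59 to 0.69 for Bhlhe41, -0.93 to -0.71 for Id1 and 0.63 to 0.68 for Id2; the largest adjusted p was 0.0194. Of the 3 regulators not called, Zeb2 gained a call without VAV-cre replicate 1. With 1 library left out, log2 fold changes ran from -0.12 to -0.0038 for Runx1, -0.22 to -0.06 for Zeb2 and -0.21 to -0.02 for Id3, with no change of sign. Genes called numbered 2277 to 2616 higher and 2392 to 2717 lower with 1 library left out, and regulators called 3 higher and 3 to 4 lower.

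Differences of log2 ratios for Bhlhe40 to Bhlhe41, Id1 to Id2, Id1 to Id3 and Id2 to Id3 were 0.68, -1.47, -0.70 and 0.77 with the DKO pairs averaged (exact permutation p = 0.133 for each). The replicate block gave the same values, with an exact p of 0.125 for each from flipping the signs of the 4 same-numbered differences. With DKO replicates 1 and 2 only, the differences of log2 ratios were 0.70, -1.56, -0.75 and 0.80. With 3 and 4 only they were 0.66, -1.38, -0.65 and 0.73. With a library left out they were 0.62 to 0.76, -1.52 to -1.41, -0.74 to -0.67 and 0.70 to 0.84, and the ratio of summed Id genes to summed E proteins ran from -0.27 to -0.08. Fewer samples allow no exact p under 0.0571 (3 against 4) or 0.133 (2 against 4), and sign flips of 4 pairs none under 0.125. These losses therefore follow from the construction.

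Libraries of the same replicate number did not deviate together more than those of unlike number. Same-numbered deviations correlated at -0.05, 0.03, -0.04 and -0.04, against -0.19 to 0.15 between unlike numbers. The labels do not say whether equal numbers pair libraries, and a weak shared effect was not tested. The replicate block left 2215 genes higher and 2434 lower, and the calls on the 9 regulators unchanged. Of all genes, edgeR called 1811 higher and 2162 lower, DESeq2 1965 and 2298, and limma 1843 and 2187, each on 6 libraries. With the DKO pairs averaged 1924 and 2208 were called, and with DKO replicates 1 and 2 only 1784 and 2138. With 3 and 4 only 2205 and 2420 were called. The settings with only DKO replicates 1 and 2 or 3 and 4, and limma on 6 libraries, were chosen after seeing the data.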

Other observations

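Bhlhe40 varied across the 4 DKO libraries by less than the SD expected from counting alone. Its SD of 2.25 stood against 17.7, the square root of its mean, a ratio of 0.127. This was the smallest such ratio over the 9 genes and both groups. In DKO, Maf (0.833) and Bhlhe41 (0.820) also had an SD under that root. An SD from 4 libraries is imprecise, and counting alone often gives ratios like those of Maf and Bhlhe41. Whether any ratio lay below what counting gives was not tested. Id1 averaged 1517 in DKO libraries 1 and 2 and 1772 in libraries 3 and 4, both below the VAV-cre libraries. No library stood apart from its own group for any of the 9 genes or 5 ratios by the gap test used, over 28 groups checked.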
